A study of Sus scrofa with 4 samples.

Results

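GDF9 and BMP15 are the growth factors that the oocyte secretes as a pair to the cells around it, and they were followed here as 2 of the 4381 gene symbols counted by RNA sequencing of M II oocytes of the pig. Their rows were taken by symbol, and both were among the 2387 genes tested. The control group (control 1 and control 2) was matured in vitro without the inhibitor, and the SIRT6-inhibited group (inhibited 1 and inhibited 2) with 100 μM SIRT6-IN-1, which enters cells and inhibits the deacetylase SIRT6. Whether the sequenced controls received the solvent is not given in the sources used here. All oocytes came from abattoir ovaries, were cultured for 42 to 44 h as complexes with their cumulus cells and were collected at M II, so oocytes that did not reach M II are not represented. Each group was a pool of 100 oocytes whose division between libraries is not given, and no source says that the libraries came from separate cultures or animals. The p-values therefore measure only the spread between these libraries, which may be technical.

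Both proteins belong to the TGF-beta superfamily and are made as precursors that are folded and cut in the secretory pathway before the oocyte releases them to granulosa and cumulus cells, where they promote follicle growth and expansion of the cumulus matrix. Both bind the type II receptor BMPR2, and GDF9 then signals through the type I receptor TGFBR1 to SMAD2 and SMAD3, while BMP15 signals through the type I receptor BMPR1B to SMAD1 and its relatives. Their mRNAs are made and stored during oocyte growth, and transcription is largely silent by M II.

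In the RefSeq annotation of the pig assembly Sscrofa11.1, GDF9 lies on chromosome 2 at 135181494 to 135184451 and BMP15 on chromosome X at 44613122 to 44620575. In that annotation 0 other genes overlap either of them. The submitters' processing notes name this assembly (as susScr11) and a mouse build, without saying which was used for the counts.

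The listed symbols are part of the pig's genes, so library totals are counts on these symbols and not the full depth. They came to 4646129 in control 1, 3405960 in control 2, 3239200 in inhibited 1 and 4972602 in inhibited 2. Levels are given as CPM (counts of a gene relative to the total of its library), with the percent of all counts beside them for both factors. With 3 counts as the floor, the lowest level that could be told from 0 lay between 0.603 and 0.926 CPM, which is far below either gene. Intervals for single libraries are 95% exact binomial (Clopper-Pearson) intervals, and like the floor they cover only counting error, as reads from amplified cDNA are not separate molecules.

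BMP15 was close to level across the libraries. It had 74209 counts in control 1 and 69438 in control 2, which is 15972 CPM (interval 15858 to 16087) and 20387 CPM (20237 to 20538). It had 57191 counts in inhibited 1 and 91357 in inhibited 2, which is 17656 CPM (17513 to 17800) and 18372 CPM (18254 to 18491). The groups overlapped, with both inhibited libraries between the controls. BMP15 took 1.60% of all counts in control 1, 2.04% in control 2, 1.77% in inhibited 1 and 1.84% in inhibited 2, and its rank by reads was 5 in control 2 and 6 in each of the others. The mean was 18180 ± 3122 CPM in controls and 18014 ± 506 CPM in SIRT6-inhibited oocytes (SD, n = 2 per group). The log2 fold change, SIRT6-inhibited minus control, was 0.049 with a standard error of 0.11 and an adjusted p of 0.984 by edgeR, and the 95% interval of the edgeR fit ran from -0.22 to 0.32. A difference between the groups was not detectable, and the sign of this small value depended on the scaling, at -0.014 with library totals only, and on single libraries, at -0.096 without control 1 and -0.0031 without inhibited 2. The largest move was to 0.19 without control 2, where edgeR's unadjusted p-value was 0.0203 and its adjusted p-value 0.950, the 1 setting of 15 with an unadjusted p-value under 0.05 for BMP15.

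GDF9 differed several-fold between libraries. It had 6128 counts in control 1 and 10613 in control 2, which is 1319 CPM (interval 1286 to 1352) and 3116 CPM (3057 to 3176). It had 3147 counts in inhibited 1 and 1887 in inhibited 2, which is 972 CPM (938 to 1006) and 379 CPM (363 to 397). Control 2 was highest and inhibited 2 lowest, and both inhibited libraries were below both controls. GDF9 took 0.132% of all counts in control 1, 0.312% in control 2, 0.0972% in inhibited 1 and 0.0379% in inhibited 2, and its rank by reads was 124, 36, 164 and 392 in the same order. None of these intervals overlapped, so counting error was small beside the differences between libraries, within groups too. On the scale of normalized CPM, which also corrects totals by edgeR's TMM factors, GDF9 differed 2.26-fold between the controls and 2.49-fold between the inhibited libraries. The lower control exceeded the higher inhibited library only 1.35-fold, so the distance within each group was wider than the gap between the groups.

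**Figure D1:**
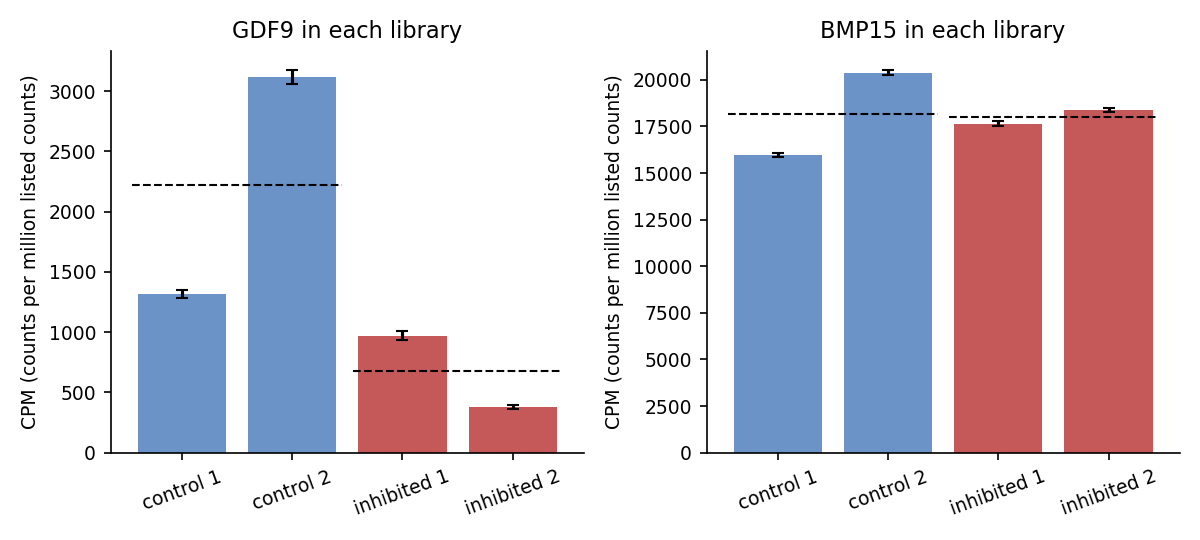
GDF9 and BMP15 in each library, in CPM on linear axes that start at 0 and differ between panels, with bars for single libraries, exact 95% binomial intervals on the bars and dashed lines for group means. GDF9 ranges from 379 to 3116 CPM, with both inhibited libraries below both controls, while BMP15 lies between 15972 and 20387 CPM.

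The mean of GDF9 was 2217 ± 1271 CPM in controls and 676 ± 419 CPM in SIRT6-inhibited oocytes (SD, n = 2 per group). Its log2 fold change was -1.65 with a standard error of 0.50, or 3.15-fold lower in SIRT6-inhibited oocytes, and the 95% interval of the edgeR fit ran from -2.85 to -0.46. The unadjusted p-value was 0.0140, and the Benjamini-Hochberg adjusted p-value over the 2387 genes was 0.469 (edgeR's quasi-likelihood test), so GDF9 did not pass adjustment. In that test 0 genes (0%) had an adjusted p-value under 0.05. GDF9 was 1 of 143 genes (5.99% of those tested) that were lower in SIRT6-inhibited oocytes with an unadjusted p-value under 0.05, and 73 genes (3.06%) were higher, while BMP15 was in neither set. DESeq2's Wald test gave 37 genes with an adjusted p-value under 0.05, edgeR's exact test 5 and limma-voom 0, and GDF9 was not among them. Non-overlap of the groups, as seen for GDF9, was common, since both inhibited libraries were below both controls for 22.2% of the genes tested and above both for 17.9%. At any p-value, 1261 of the 2387 genes were lower in SIRT6-inhibited oocytes and 1126 higher.

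The alternative settings all drew on these 4 libraries, where the groups did not overlap for GDF9. Leaving out 1 library could therefore hardly reverse its direction. The direction of GDF9 held in all 15 alternative settings tried, while its size rested on single libraries. Without control 2 it was 1.94-fold lower in SIRT6-inhibited oocytes, and without inhibited 1 it was 5.50-fold lower. GDF9 passed adjustment without a filter on low counts (edgeR adjusted p = 6.7e-26), without inhibited 1 (edgeR adjusted p = 6.5e-22) and without inhibited 2 (edgeR adjusted p = 6.7e-05), where edgeR took its spread from other genes, and over all settings the adjusted p-value ran from 6.7e-26 to 0.950. It passed in 5 of the 15 settings and BMP15 in 0. Since CPM are shares of a library made from pooled oocytes, fewer oocytes with the transcript and less of it per oocyte cannot be told apart.

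**Figure D2:**
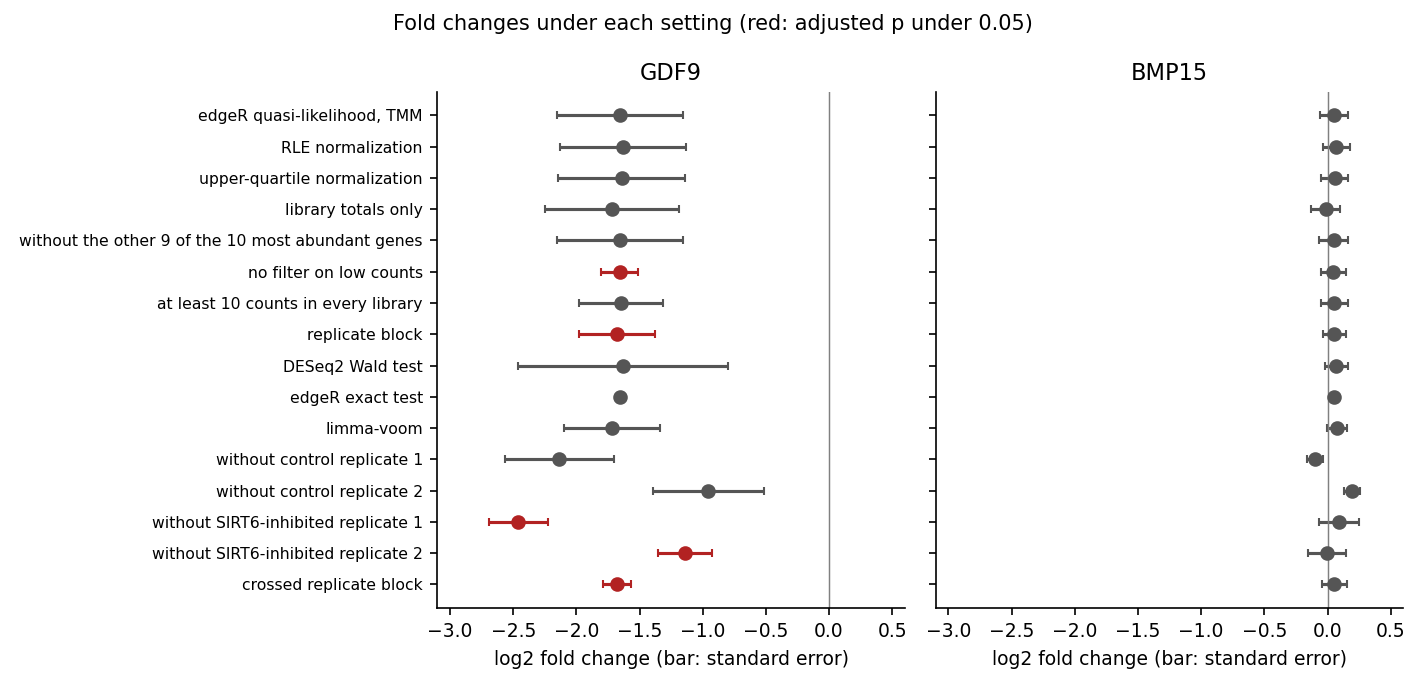
Log2 fold change of GDF9 (left) and BMP15 (right) under each setting, SIRT6-inhibited minus control, with bars for the standard error where the test gives it and red points for an adjusted p-value under 0.05. GDF9 lies below 0 in every setting shown, from -2.46 to -0.95, and BMP15 lies between -0.096 and 0.19.

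The reads of GDF9 were also set against those of BMP15 within each library, which removes the library total and the scaling. This is a ratio of reads and not of transcripts, as transcript lengths were not used here, so only its change between libraries was compared. GDF9 made up 7.63% (interval 7.45% to 7.81%) of the reads of the pair in control 1 and 13.3% (13.02% to 13.5%) in control 2. Its share was 5.22% (5.04% to 5.40%) in inhibited 1 and 2.02% (1.93% to 2.12%) in inhibited 2. Both inhibited libraries were below both controls, in the same order as the CPM of GDF9. The reads of BMP15 for each read of GDF9 numbered 12.1 in control 1, 6.54 in control 2, 18.2 in inhibited 1 and 48.4 in inhibited 2. The log2 of the GDF9 to BMP15 ratio was -3.15 ± 0.63 in controls and -4.89 ± 1.00 in SIRT6-inhibited oocytes (SD, n = 2 per group), a difference of -1.74, or 3.33-fold. The difference was -2.44 without inhibited 1 and -1.03 without inhibited 2. An exact permutation test of that difference gave p = 0.3333 (two-sided), the smallest value that 2 against 2 libraries allow, so it cannot pass a threshold of 0.05. The ratio moved mainly with GDF9, because BMP15 ranged only 1.22-fold in normalized CPM while GDF9 ranged 7.60-fold. Both genes together took 1.73% of the counts of control 1, 2.35% of control 2, 1.86% of inhibited 1 and 1.88% of inhibited 2.

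**Figure D3:**
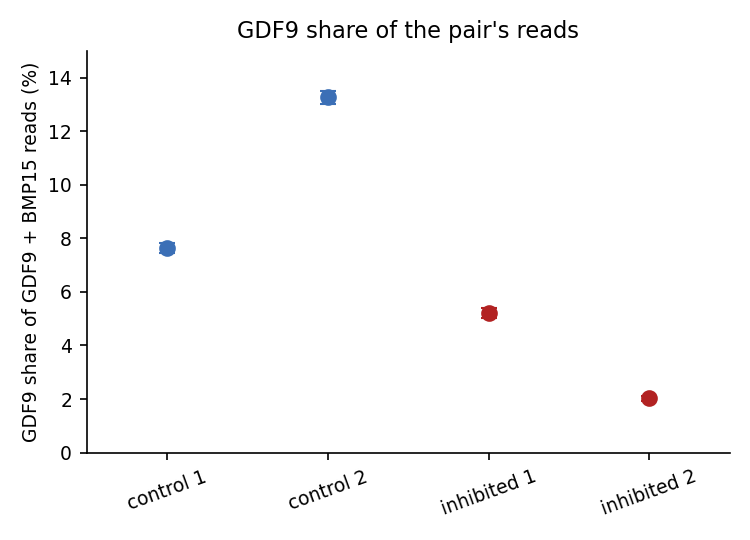
Share of GDF9 in the reads of GDF9 and BMP15 together, in percent, for each library (blue, control, and red, SIRT6-inhibited) with exact 95% binomial intervals. The shares run from 2.02% to 13.3%, and both inhibited libraries lie below both controls.

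The size of these differences was set beside 880 genes with a mean of at least 100 CPM and 50 or more counts in each library. Between the controls the absolute log2 difference was 1.17 for GDF9, 0.29 for BMP15 and 0.21 at the median of these genes. Between the inhibited libraries it was 1.31 for GDF9, 0.099 for BMP15 and 0.19 at the median. GDF9 was thus among the most variable of these genes inside each group, at percentile 99.1 in controls and 98.5 in SIRT6-inhibited oocytes, and its absolute log2 fold change between the groups was at percentile 99.8. BMP15 was at percentiles 67.3, 30.3 and 15.5 of the same quantities. Depth also differed between libraries, and within each group GDF9 was higher in the library with fewer counts. Genes detected numbered 2411 in control 1, 2689 in control 2, 2277 in inhibited 1 and 2320 in inhibited 2. The part of depth and of detection in the GDF9 values was not tested.

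Genes with a pattern like that of each factor were found from log2 normalized CPM centred on each gene's mean over the 4 libraries, by the root mean square difference from the factor, among 1429 other genes that had 50 or more counts in each library. ARL6IP1, which shapes the endoplasmic reticulum, was nearest to GDF9 at 0.023 log2 units, where the median gene was at 1.08. It had 72.8 normalized CPM in control 1, 169 in control 2, 55.9 in inhibited 1 and 22.1 in inhibited 2. TMBIM6, a cell death inhibitor in the membrane of the endoplasmic reticulum, was at 0.18, and HSP90B1, a chaperone of the same compartment, at 0.21. DYNLL1, a dynein light chain, was at 0.27, and ZP3, a sperm-binding protein of the zona pellucida, at 0.31. These 5 genes, like GDF9, were highest in control 2 and lowest in inhibited 2. Their log2 fold changes, which the likeness to GDF9 largely fixes, were -1.64 for ARL6IP1, -1.71 for TMBIM6, -1.73 for HSP90B1, -1.70 for DYNLL1 and -1.04 for ZP3. These sizes too rested on single libraries, being smallest without control 2, from -1.27 for HSP90B1 to -0.30 for ZP3, and largest without inhibited 1, from -1.92 for ZP3 to -2.69 for DYNLL1. The complete order of the libraries seen for GDF9 was shared by 80 of 1430 genes (5.59%), 23.2% of these genes were highest in control 2, and 22.7% were lowest in inhibited 2.

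**Figure D4:**
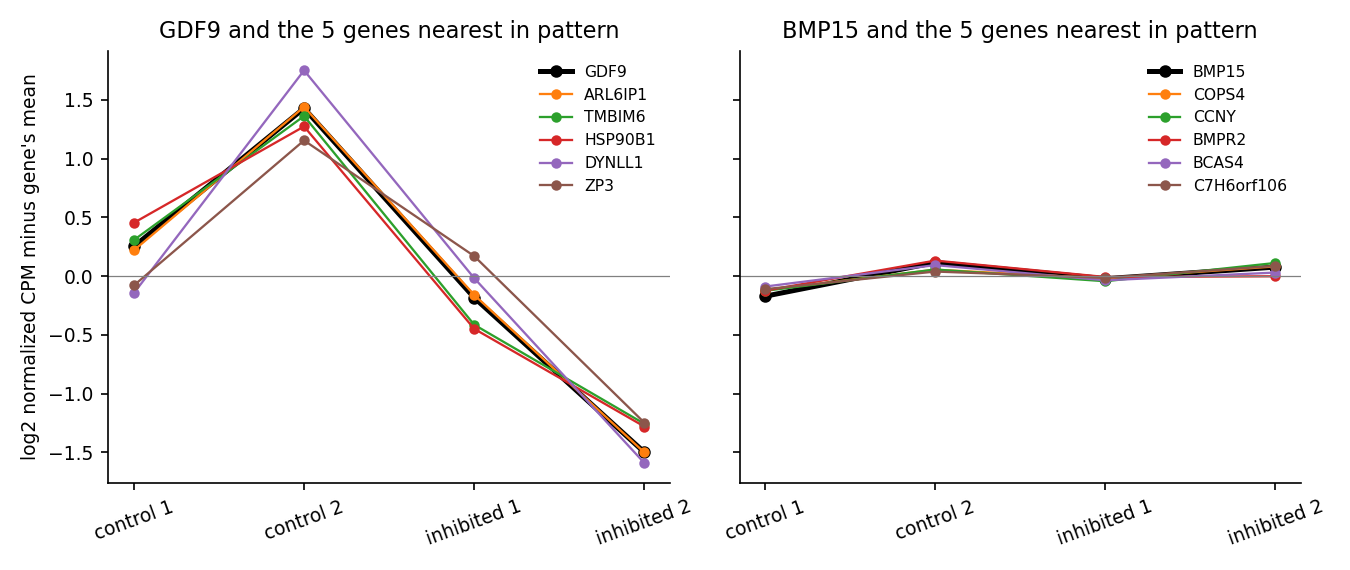
GDF9 (left) and BMP15 (right), each in black with its 5 nearest genes in colour, as log2 normalized CPM minus the gene's mean over the 4 libraries, on a shared axis with lines that only join the values of a gene. The genes near GDF9 peak in control 2 and are lowest in inhibited 2, while those near BMP15 lie close to 0.

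The level pattern of BMP15 was common, as the median gene was only 0.26 log2 units from it. COPS4, a subunit of the COP9 signalosome, was nearest at 0.041, followed by CCNY, which encodes cyclin Y, at 0.043. The type II receptor BMPR2 was at 0.047, with 151 normalized CPM in control 1, 181 in control 2, 164 in inhibited 1 and 165 in inhibited 2. BCAS4 and C7H6orf106 were at 0.049 each.

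The labelled cell type was checked with oocyte markers, of which 12 of 20 were listed, and each of the 12 had counts in all libraries. Their summed level was 102408 CPM in control 1, 99651 in control 2, 103978 in inhibited 1 and 104072 in inhibited 2. The sum was level across libraries, but WEE2, KPNA7 and H1FOO made up between 89.1% and 93.8% of it. The other 9 markers summed to 7904 CPM in control 1, 10890 in control 2, 8700 in inhibited 1 and 6463 in inhibited 2, with control 2 highest and inhibited 2 lowest, as for GDF9. Of these 9 markers 4 (ZP2, ZP3, NOBOX and MOS) were themselves highest and lowest in those libraries, or 3 in normalized CPM, where MOS was not, and the others were not. ZP3 had 541 CPM in control 1, 1330 in control 2, 641 in inhibited 1 and 233 in inhibited 2. Among those without these extremes ZAR1, which binds maternal mRNA, had 83.5 CPM in control 1, 122 in control 2, 219 in inhibited 1 and 34.2 in inhibited 2, and the groups overlapped for each of ZP3, NOBOX and ZAR1. Of the 12 markers 6 were lower and 6 higher, with a median log2 fold change of -0.0017 beside -0.039 over all genes tested, and the median was above 0 with RLE or upper-quartile factors. The CDK1-inhibiting kinase WEE2, the most abundant by reads, had 41528 CPM in control 1, 39777 in control 2, 45417 in inhibited 1 and 46540.4 in inhibited 2. It did not overlap between groups, with both inhibited libraries above both controls, as for 17.9% of all genes tested. WEE2 differed by 0.23 log2 units (standard error 0.078, adjusted p = 0.487 by edgeR), and passed adjustment with DESeq2. ZP2, a zona pellucida protein, had 3698 CPM in control 1, 4516 in control 2, 3397 in inhibited 1 and 2690 in inhibited 2. It was lower in both inhibited libraries, as were 22.2% of all genes tested. Its log2 fold change was -0.37 with standard error 0.14 (adjusted p = 0.510 by edgeR). WEE2 and ZP2 were the markers with an unadjusted p-value under 0.05, where 5.99% of all genes tested were lower and 3.06% higher.

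Among genes that fold or cut such precursors, 4 of 10 were listed and tested, all of them folding factors of the endoplasmic reticulum, while the convertases FURIN, PCSK5, PCSK6 and PCSK7 were not analysed here. HSP90B1, which was among the genes nearest to GDF9, had 408 CPM in control 1, 753 in control 2, 218 in inhibited 1 and 119 in inhibited 2. PDIA3, a disulfide isomerase, had 262 CPM in control 1, 456 in control 2, 171 in inhibited 1 and 112 in inhibited 2. Both had the library order of GDF9, as did 5.59% of 1430 genes. Neither overlapped between groups, with both inhibited libraries below both controls, as for 22.2% of all genes tested. Their log2 fold changes were -1.73 for HSP90B1 (standard error 0.36) and -1.28 for PDIA3 (standard error 0.32), each with an edgeR adjusted p of 0.460. HSP90B1 passed adjustment in 8 of the 15 alternative settings and PDIA3 in 3. The isomerase PDIA4, the most abundant by reads, had 4026 CPM in control 1, 3854 in control 2, 4828 in inhibited 1 and 4360 in inhibited 2. It was higher in both inhibited libraries, as were 17.9% of all genes tested (log2 fold change 0.28, standard error 0.10, edgeR adjusted p = 0.510). The list was thus split, 2 lower and 2 higher with a median of -0.58, and 2 lower genes and 1 higher gene had an unadjusted p-value under 0.05, as did 5.99% and 3.06% of all genes tested.

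Of 12 receptors of the superfamily 9 were listed and 7 tested, 2 lower and 5 higher (1 and 6 with RLE factors), with a median log2 fold change of 0.24. BMPR2, the type II receptor for both factors, had 151 CPM in control 1, 188 in control 2, 163 in inhibited 1 and 159 in inhibited 2. BMPR1B, the type I receptor for BMP15, had 157 CPM in control 1, 235 in control 2, 191 in inhibited 1 and 160.3 in inhibited 2. TGFBR1, the type I receptor for GDF9, had 9.90 CPM in control 1, 12.9 in control 2, 9.57 in inhibited 1 and 16.1 in inhibited 2. The groups overlapped for all 3 of these receptors. ACVR1B, a type I receptor for activin, was the most abundant by reads and the 1 receptor of 7 with an unadjusted p-value under 0.05, beside 3.06% of all genes tested in its direction. It had 1263 CPM in control 1, 1554 in control 2, 1823 in inhibited 1 and 1868 in inhibited 2, so both inhibited libraries were above both controls, as for 17.9% of all genes. The difference was 0.45 log2 units (standard error 0.12, adjusted p = 0.460 by edgeR), and it passed adjustment with DESeq2.

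Of 13 genes for SMADs and their regulators 6 were listed and 3 tested, 1 lower and 2 higher with a median of 0.26, and 0 had an unadjusted p-value under 0.05. SMAD1, which carries BMP15 signals and was the most abundant by reads, had 148 CPM in control 1, 194 in control 2, 156 in inhibited 1 and 233 in inhibited 2. SMAD2, which carries GDF9 signals, had 129 CPM in control 1, 86.9 in control 2, 60.8 in inhibited 1 and 111 in inhibited 2. Both overlapped between groups. SMAD3, the partner of SMAD2, had only 20 and 23 counts in controls against 66 and 49 in SIRT6-inhibited oocytes (log2 fold change 1.503, standard error 1.17, edgeR adjusted p = 0.869).

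Among 12 other ligands of the superfamily 10 were listed and 7 tested, 5 lower and 2 higher (6 and 1 with library totals only), with a median of -0.60 and 0 unadjusted p-values under 0.05. BMP6, a further ligand made by oocytes and the most abundant of the list by reads, had 229.7 CPM in control 1, 277 in control 2, 264 in inhibited 1 and 190.04 in inhibited 2, and its groups overlapped. Of 7 antagonists 3 were listed and only FST, which binds activins, was tested, with 16.1 CPM in control 1, 10.6 in control 2, 5.25 in inhibited 1 and 13.9 in inhibited 2. Its log2 fold change was -0.42 with a standard error of 1.12, so the spread was far wider than the difference.

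**Figure D5:**
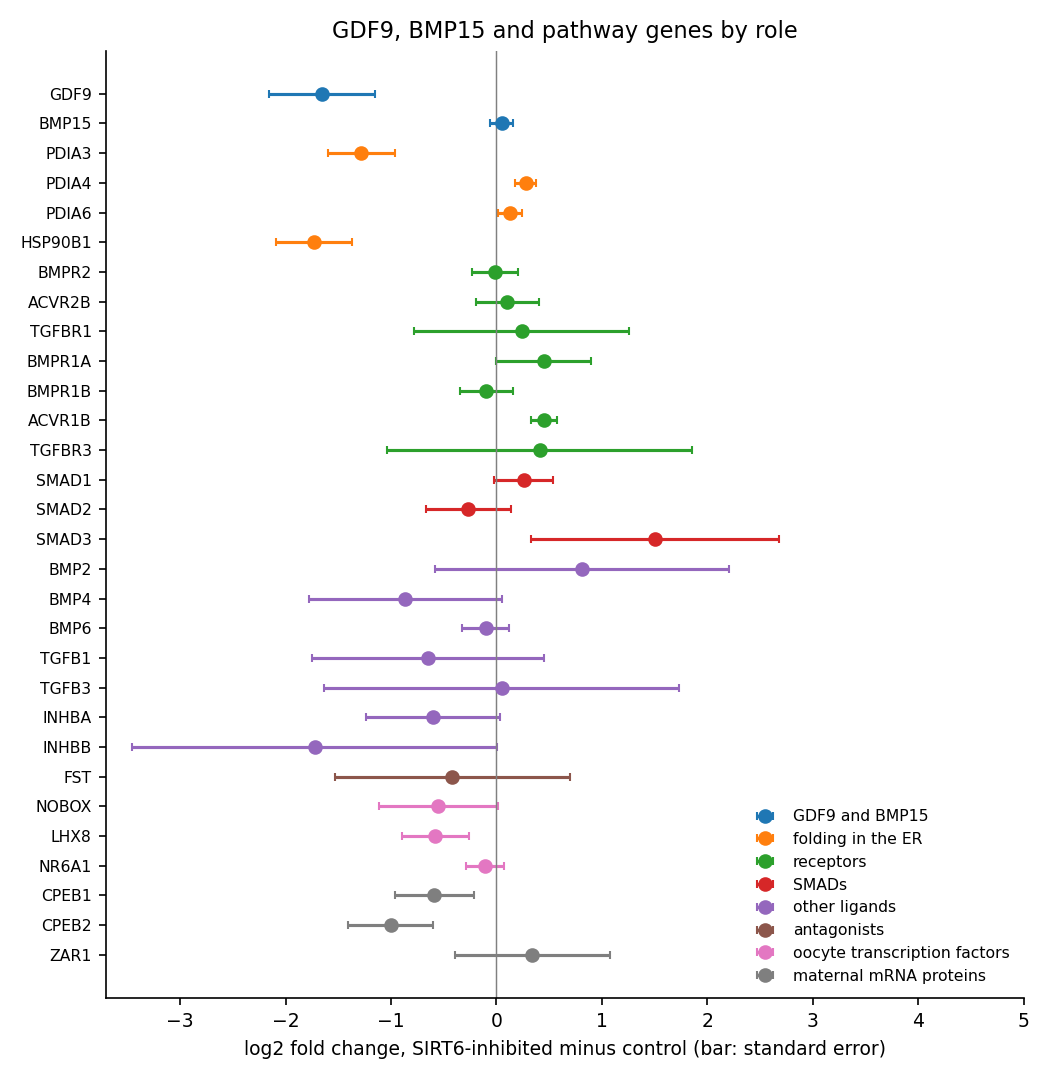
Log2 fold changes of GDF9, BMP15 and the tested pathway genes by role, SIRT6-inhibited minus control, with bars for the standard error of the edgeR fit. GDF9 at -1.65, HSP90B1 at -1.73 and PDIA3 at -1.28 lie to the left, BMP15 at 0.049 and BMPR2 at -0.014 lie near 0, and genes with few counts have wide bars.

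Of 7 transcription factors that act in oocytes 3 were listed and tested, all 3 lower under each scaling tried, with a median of -0.55 and 0 unadjusted p-values under 0.05. Over all 2387 genes tested 1261 were lower, and the scalings reuse the same libraries. NOBOX, an activator of GDF9 and BMP15, had 39.8 CPM in control 1, 94.5 in control 2, 59.3 in inhibited 1 and 28.6 in inhibited 2. Control 2 was highest and inhibited 2 lowest, as for GDF9, but the groups overlapped. LHX8, another oocyte activator, had 123 CPM in control 1, 173 in control 2, 116 in inhibited 1 and 74.6 in inhibited 2 (log2 fold change -0.58, standard error 0.31, edgeR adjusted p = 0.652). NR6A1, a repressor and the most abundant by reads, had 248 CPM in control 1, 274 in control 2, 240.5 in inhibited 1 and 224 in inhibited 2 (log2 fold change -0.11, standard error 0.18). LHX8 and NR6A1 had the complete library order of GDF9, as did 5.59% of 1430 genes. Neither overlapped between groups, with both inhibited libraries below both controls, as for 22.2% of all genes tested. Of 23 genes that store, lengthen or remove maternal mRNA 3 were listed and tested, 2 lower and 1 higher, with a median of -0.59. CPEB1, which controls the poly(A) tails of stored mRNAs and was the most abundant by reads, had 118 CPM in control 1, 267 in control 2, 127 in inhibited 1 and 116 in inhibited 2, and its groups overlapped. Its relative CPEB2 was the 1 gene of the list with an unadjusted p-value under 0.05, with 85.7 CPM in control 1, 96.6 in control 2, 29.9 in inhibited 1 and 56.5 in inhibited 2. Among all genes tested 5.99% were lower at that threshold. Both inhibited libraries were below both controls for CPEB2, as for 22.2% of all genes (log2 fold change -1.005, standard error 0.41, edgeR adjusted p = 0.534).

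Of 13 genes that respond to the factors in cumulus or granulosa cells 11 were listed and 6 tested, with a median of -0.67 and 0 unadjusted p-values under 0.05. The libraries were made from oocytes, so these values do not measure the response of cumulus or granulosa cells. All 6 were lower, while with RLE or upper-quartile factors 5 were lower and 1 higher, and the median was the same with a gene at 0 in a whole group set to the floor. Over all 2387 genes tested 1261 were lower. ID3, a helix-loop-helix inhibitor that BMP signals induce, was the most abundant by reads, with 11646 CPM in control 1, 9190.4 in control 2, 9975 in inhibited 1 and 10081 in inhibited 2. Its groups overlapped. PTGS2, the prostaglandin synthase of cumulus expansion, had 22 counts in control 1, 12 in control 2 and 0 in both inhibited libraries, at least 5.40-fold lower against a floor of 3 counts per library. These are few counts, and its edgeR adjusted p-value was 0.570. Both inhibited libraries were below both controls for PTGS2, as for 22.2% of all genes tested. The receptor FSHR and the matrix protein TNFAIP6 had 0 counts in every library.

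Markers of other cells were measured beside GDF9, some of them, such as PTGS2, VCAN and INHBA, on the lists above too. Of 28 cumulus and granulosa cell markers 23 were listed, and 9 of these had 0 counts in every library, among them FSHR, LHCGR, AMH, AMHR2 and HSD17B1. Their summed level was 286 CPM in control 1, 284 in control 2, 162 in inhibited 1 and 296 in inhibited 2, with VCAN the most abundant by reads. Inhibited 2 had the highest sum and the lowest GDF9, but most of the sum came from VCAN and KITLG. VCAN had 82.4 CPM in control 1, 142 in control 2, 38.6 in inhibited 1 and 137 in inhibited 2. KITLG had 126 CPM in control 1, 83.1 in control 2, 77.5 in inhibited 1 and 93.3 in inhibited 2. The sum therefore says little about the other markers. Of 9 markers tested 7 were lower and 2 higher, with a median of -0.42 and 0 unadjusted p-values under 0.05. Theca and stromal markers, 8 of 10 listed and 4 of these at 0 throughout (CYP17A1, COL3A1, INSL3 and LHCGR), summed to 33.4 CPM in control 1, 45.2 in control 2, 15.4 in inhibited 1 and 19.1 in inhibited 2. This sum was lower in both inhibited libraries, as GDF9 was. Of them 2 were tested, and they went opposite ways, so the median of -1.97 is only their midpoint. COL1A2, the most abundant by reads, had 17.0 CPM in control 1, 11.7 in control 2, 15.4 in inhibited 1 and 14.9 in inhibited 2, which overlapped (log2 fold change 0.13, standard error 0.89). PDGFRA, a growth factor receptor of stromal cells, had 64 counts in control 1, 109 in control 2, 0 in inhibited 1 and 12 in inhibited 2, so the lower sum lay mainly in this gene (log2 fold change -4.07, standard error 1.73, edgeR adjusted p = 0.551). Blood and immune markers, 8 of 10 listed and 6 of these at 0 throughout, HBB and CD3E included, summed to 14.9 CPM in control 1, 33.8 in control 2, 23.8 in inhibited 1 and 18.7 in inhibited 2, and PECAM1, the most abundant and the 1 tested, had a log2 fold change of -0.091. The part of these cells in the GDF9 values was not tested.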

How the data were processed

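RNA was sequenced from 4 libraries of porcine M II oocytes, 2 per group, with 150-bp paired-end reads. The sample labels name Smart-seq2 amplification of cDNA, and the study's methods name random-primed libraries. Values are raw counts of reads on each gene symbol as the authors deposited them, with 1 column for each library. The submitters' processing notes name TopHat2 2.0.13, Cufflinks 2.2.1, Cuffnorm and Cuffdiff with the builds susScr11 and mm10, without roles. The counting tool, annotation and strand setting are not given in the sources used here. A RefSeq symbol or synonym was found for 98.1% of the 4381 symbols.

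Counts were analysed in R 4.3.3 with edgeR 4.0.16 (filterByExpr, min.count 10 and min.total.count 15, TMM factors, quasi-likelihood test, Benjamini-Hochberg adjustment over 2387 genes), and in limma 3.58.1 and DESeq2 1.42.0. A standard error is the size of the log2 fold change over the square root of F. Profiles were compared with a prior count of 2. The code of the fit was tested on counts simulated from its own estimates of spread, which cannot show whether these libraries are independent.

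The members, lists and tests were chosen with earlier results of these data known. By rule the text names both factors, the 5 genes nearest to each, and from each list its most abundant gene and every gene whose unadjusted p-value was under 0.05. Genes named beyond that, such as the receptors of the factors, were chosen after their values were seen. Alternatives were RLE, upper-quartile or no scaling factors, leaving out the other 9 of the 10 most abundant genes (BMP15 is itself among the 10), no filter, a filter of 10 counts in each library, a replicate block, DESeq2, edgeR's exact test, limma-voom and leaving out each library. A crossed replicate block was added after seeing the data.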

Additional observations from a re-analysis of the deposited data

How the results depend on the processing

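GDF9 passed adjustment without a filter on low counts (log2 fold change -1.66), with the replicate block (-1.68, edgeR adjusted p = 0.00398) and with the replicate numbers crossed (-1.68), and ranged from -2.46 to -0.95 with each library left out. Whether libraries with the same number were made together is stated nowhere, and their deviations had a correlation of -0.12 across genes. Where a group has 1 library, it is assumed to vary like the other group. Part of the cause of the smaller p-values is measured. The quasi-dispersion of GDF9 was 6.20 as reported, beside a trend of 0.413, while without a filter, without inhibited 1 and without inhibited 2 edgeR set it to the trend of 0.459, 0.662 and 0.632. With the replicate block it was 1.38 beside a trend of 0.489, and with the numbers crossed 0.480 beside 0.528. DESeq2's unadjusted p-value for GDF9 was 0.05002. BMP15 reversed to -0.014 with library totals only and ranged from -0.096 to 0.19 with each library left out, and why it reversed was not tested beyond its small size. The 0 genes past adjustment became 43 without a filter, 2 with a filter of 10 counts in each library, 6 with the replicate block, 2 with it crossed, 37 with DESeq2 and 5 with edgeR's exact test, and with a library left out 0 (control 1), 1 (control 2), 77 (inhibited 1) and 25 (inhibited 2). The count of 216 unadjusted p-values under 0.05 ranged from 111 without control 2 to 302 without inhibited 1. With library totals only 169 of 222 such values were for lower genes, against 143 of 216. For the other 11 genes whose test was repeated, 143 values kept their direction and side of the threshold, 21 passed it and 0 reversed, and WEE2 had no value where abundant genes were left out. The difference in the log2 ratio of GDF9 to BMP15 was -1.78 from summed counts and -2.44 to -1.03 with each library left out. With the replicate block it was -1.74, which equals the reported value by construction. Ranks of both factors were the same among tested genes, as the filter removed only genes with low counts. Counting intervals of different libraries did not overlap for either factor, and what more libraries would add was not tested.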

Other observations

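GDF9 and ARL6IP1, the gene nearest to it in pattern and picked for that reason, kept a near-constant proportion in reads while GDF9 itself ranged 7.60-fold. The reads of GDF9 for each read of ARL6IP1 numbered 18.2 in control 1 (exact 95% binomial interval 16.3 to 20.4), 17.6 in control 2 (16.2 to 19.2), 17.5 in inhibited 1 (15.04 to 20.4) and 17.8 in inhibited 2 (14.6 to 21.9). Each of the 4 values lies inside the interval of every other. As ARL6IP1 was selected from 1429 genes for this likeness, the values are a description and carry no test.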
